A study of Homo sapiens with 8 samples.

Results

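Of the 58735 genes in the expression table, 10 protein-coding genes are described here: FKBP10, a chaperone gene, and 9 genes of collagen-modifying enzymes and their partners. They were picked by gene symbol, as P4HA1, P4HA2, P4HB, PLOD1, PLOD2, PLOD3, P3H1, CRTAP, LOXL2 and FKBP10, and each symbol matched 1 row. They were proposed with earlier results of these same libraries in view, so their levels and differences are a description and carry no p-value. In total, 14349 genes were tested, those with at least 1 FPKM (fragments per kilobase of gene, scaled to the library) in at least 2 libraries. The test covered 9 of the 10 genes, LOXL2 being too low.

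RNA sequencing covered 8 libraries in 3 groups, all of the human hepatic progenitor line HepaRG or a derivative of it. M14A printed (2 libraries) was M14A, a gene-edited HepaRG line with the genotype label FoxM1/HNF4A transfected, mixed into a bioink called GP, bioprinted and taken 4 h after printing. M14A plate (3 libraries) was the same line, with the same genotype label, grown in flasks. HepaRG plate (3 libraries) was the parental line, labelled WT and grown in flasks. All libraries are labelled as liver and as hepatic stem cells, and all M14A libraries come from this 1 line. Printed constructs were frozen and ground before RNA was extracted, unlike flask cells, which were detached and spun down, so an effect of printing and one of collection cannot be told apart. The labels do not say whether replicates were separate cultures, so errors and p-values cover the spread between these libraries alone, and that spread may be technical.

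Collagen chains are modified in the endoplasmic reticulum before they fold into a triple helix. Prolyl 4-hydroxylase makes the hydroxyproline that keeps the helix stable at body temperature, the prolyl 3-hydroxylation complex modifies a few prolines and also acts as a chaperone, and lysyl hydroxylases make hydroxylysine, which carries sugars and forms strong cross-links. FKBP10 encodes a prolyl isomerase that binds procollagen and is needed for lysine hydroxylation at the ends of the chains; its loss, like that of P3H1 or CRTAP, causes brittle bones in humans. In the liver these genes are known mainly from fibrosis, in which stellate cells lay down collagen, but the hydroxylases are made in many cell types.

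Libraries held 15632154 to 19148262 reads, recovered from the values. Mitochondrially encoded genes took 13.3 and 16.4% of reads in M14A printed, 8.21 to 9.72% in M14A plate and 6.91 to 7.25% in HepaRG plate. M14A plate library 1 stood apart from the others of its group, with correlations across genes of 0.957 and 0.948 against 0.988 between libraries 2 and 3, and values without it are given where it changes a call of the 10 genes. HNF4A, a nuclear receptor of hepatocytes, averaged 15.4 FPKM in M14A printed, 40.9 FPKM in M14A plate and 6.14 FPKM in HepaRG plate. FOXM1, a transcription factor of dividing cells, averaged 10.1 FPKM in M14A printed, 10.8 FPKM in M14A plate and 13.8 FPKM in HepaRG plate.

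In M14A plate cells FKBP10 RNA was at about 1 part in 100 of its level in HepaRG cells, while P4HA1, P4HA2, P4HB and PLOD3 were higher. LOXL2 was low in all libraries and lowest in M14A plate on average, and PLOD1, PLOD2, P3H1 and CRTAP did not pass the threshold between the lines. In printed M14A cells P4HA1, P4HB, PLOD1 and CRTAP were called higher than in M14A plate cells on the deposited scale, while FKBP10 stayed below 1 FPKM. None of these 4 was called at equal FPKM totals, where P4HB (-0.16), PLOD1 (-0.15) and CRTAP (-0.11) had negative log2 fold changes, or with only the 2 groups compared in the fit. At equal FPKM totals the median of all tested genes after printing was -0.51, and each such value below stands beside it. These are bulk samples, in which fewer cells of a type and less RNA per cell cannot be told apart.

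FKBP10 (ENSG00000141756) lies on chromosome 17, from 41812680 to 41823217 on the plus strand of GRCh38, and none of its exon bases fall in another annotated gene. It stood at 0.420 and 0.808 FPKM in M14A printed, at 0.278, 0.228 and 0.274 FPKM in M14A plate and at 27.7, 26.5 and 27.4 FPKM in HepaRG plate. Behind these levels were 24 and 56 reads in M14A printed, 19, 19 and 23 reads in M14A plate and 2232, 2599 and 2456 reads in HepaRG plate. Every M14A library was far below every HepaRG library, and the M14A plate mean was 0.955% of the HepaRG mean. The difference M14A plate minus HepaRG plate was -4.49 on the log2(FPKM + 1) scale (SE 0.12, 95% interval -4.76 to -4.21). FKBP10 was among the genes called lower in the fit across all genes, where a call is an adjusted p below 0.05. For the 10 genes a call only places them among all tested genes and is no test of them, since these values chose them. In the 21 alternative settings the log2 fold change was -6.69 to -4.43. Adding 1 to each value understates the change of genes as low as this one in M14A cells, and with a pseudocount of 0.01 the log2 fold change was -6.66.

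After printing, FKBP10 averaged 0.614 ± 0.275 FPKM in M14A printed and 0.260 ± 0.0279 FPKM in M14A plate (SD, n = 2 and 3). Both printed libraries lay above all 3 plate libraries, and the printed mean was 236% of the plate mean. It was still 2.26% of the HepaRG mean. The difference M14A printed minus M14A plate was 0.35 on the log2(FPKM + 1) scale (SE 0.13, 95% interval 0.04 to 0.65) and was not called. It was called under 6 other settings, among them a pseudocount of 0.1 (log2 fold change 0.94), the fit on recovered reads (log2 fold change 1.19) and the fit without M14A plate library 1 (log2 fold change 0.36). The difference stayed uncalled in 15 of the 21 alternatives. Among these, the log2 fold change was 0.12 at equal FPKM totals and 0.17 at equal totals without mitochondrial genes. The 2 printed libraries differed from each other by more than the lower of them differed from any plate library.

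**Figure D1:**
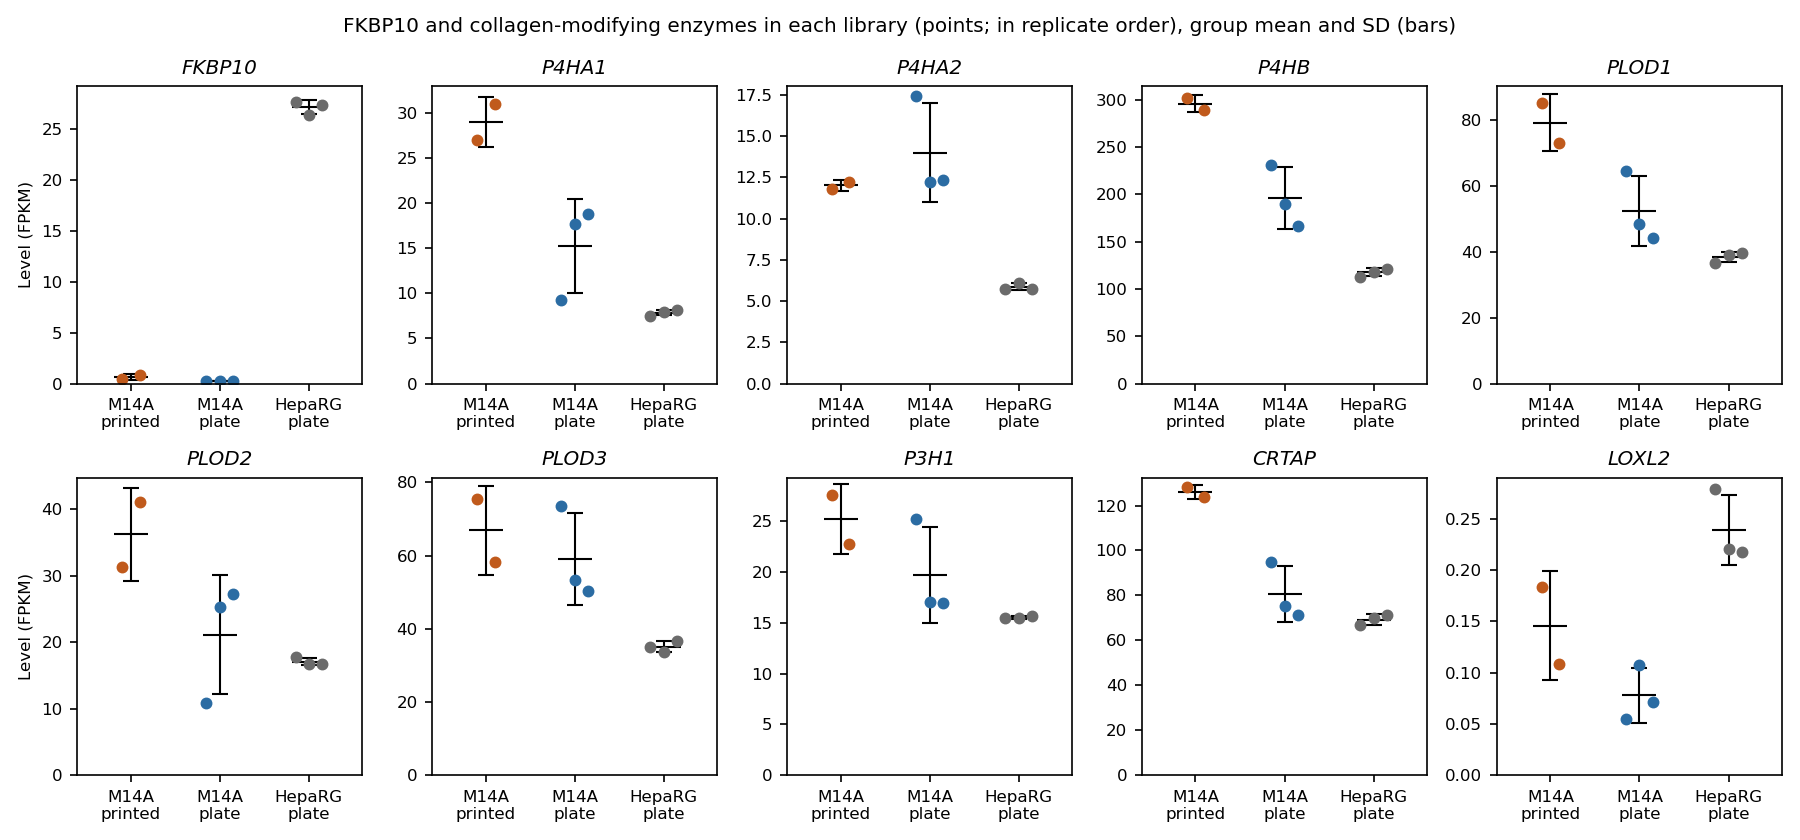
FPKM of each of the 10 genes in every library, each panel with its own linear axis from 0 and with M14A printed, M14A plate and HepaRG plate from left to right; points are libraries and bars show the group mean and SD. FKBP10 is below 1 FPKM in all M14A libraries and at 26.5 to 27.7 FPKM in HepaRG plate. On the deposited scale the 8 other tested genes are higher in both printed libraries than in every HepaRG library.

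FKBP10 begins next to a gene that is read from the other strand, so its neighbours were examined. This window was chosen after the values were seen. P3H4, a relative of the prolyl 3-hydroxylases that is known in mouse as a partner of a lysyl hydroxylase, starts at 41812604 and runs away from FKBP10 on the minus strand, which leaves 75 bases between the genes. P3H4 stood at 7.05 and 5.11 FPKM in M14A printed, at 6.98, 5.83 and 4.97 FPKM in M14A plate and at 12.7, 12.5 and 14.7 FPKM in HepaRG plate. Its levels in M14A plate were all below those in HepaRG plate, but by far less than for FKBP10 (adjusted p = 0.0013, log2 fold change -1.05 with SE 0.16). On the other side of FKBP10, NT5C3B, a nucleotidase gene, averaged 16.9 ± 4.09 FPKM in M14A plate and 17.0 ± 0.368 FPKM in HepaRG plate (log2 fold change -0.03, SE 0.17, not called). Of the 12 other genes that reach within 100 kb of FKBP10, 6 were tested. In M14A plate 1 was called higher (16.1% of all tested genes), 2 were called lower (14.7%) and 3 were not called. The gene called higher was JUP, which encodes the junction protein plakoglobin, at 5.16 ± 2.57 FPKM in M14A plate and 1.33 ± 0.0526 FPKM in HepaRG plate (adjusted p = 0.0046, log2 fold change 1.33 with SE 0.25). After printing, only NT5C3B among the 6 was called, against 33.2% of all tested genes in either direction. It averaged 30.5 ± 2.82 FPKM in M14A printed and 16.9 ± 4.09 FPKM in M14A plate (adjusted p = 0.010, log2 fold change 0.84 with SE 0.19).

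**Figure D2:**
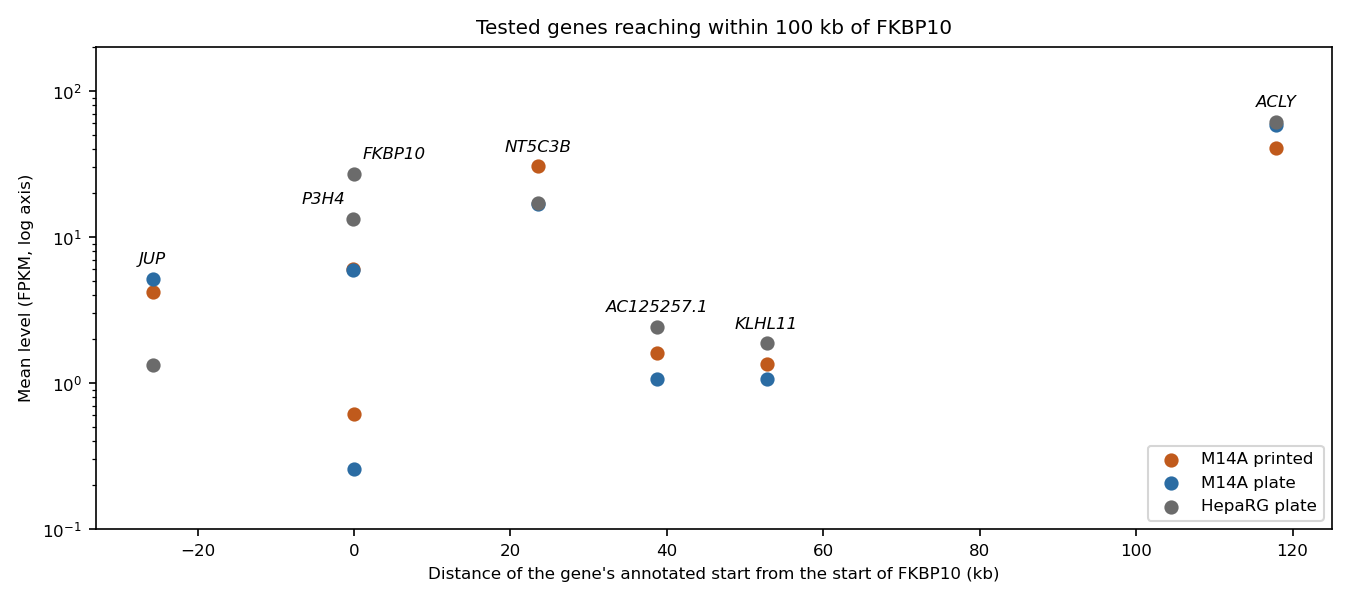
Group mean FPKM on a log axis of each tested gene reaching within 100 kb of FKBP10, against the distance of its annotated start from that of FKBP10 in kb; each point is the mean of M14A printed (n = 2), M14A plate (n = 3) or HepaRG plate (n = 3). FKBP10 spans 0.260 FPKM in M14A plate to 27.2 FPKM in HepaRG plate, while NT5C3B has 16.9 and 17.0 FPKM in the same groups.

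By likeness of pattern over the 8 libraries, the 5 protein-coding genes nearest to FKBP10 were MMP2, TMPRSS15, CHST1, COL5A1 and SCARA3. Likeness was the root mean square difference between log2(FPKM + 1) values after centring each gene on its own mean, and it was 0.173 for MMP2, 0.179 for TMPRSS15, 0.188 for CHST1, 0.230 for COL5A1 and 0.251 for SCARA3. MMP2, a secreted gelatinase, averaged 0.0704 FPKM in M14A printed, 0.0670 FPKM in M14A plate and 19.9 FPKM in HepaRG plate. COL5A1, a chain of the fibril-forming type V collagen, averaged 0.0283 FPKM in M14A printed, 0.0121 FPKM in M14A plate and 25.0 FPKM in HepaRG plate. TMPRSS15, which encodes enteropeptidase, and CHST1, a sulfotransferase gene, had means of at most 0.111 FPKM in either M14A group and of 23.9 and 19.3 FPKM in HepaRG plate. SCARA3, a scavenger receptor gene, averaged 0.0508 FPKM in M14A printed and 18.4 FPKM in HepaRG plate, and its M14A plate libraries were listed at 0.388, 0 and 0 FPKM. These genes lie on chromosomes 16, 21, 11, 9 and 8, in the order named, and none on that of FKBP10.

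The catalytic subunits of prolyl 4-hydroxylase are encoded by P4HA1 and P4HA2. Promoter windows of 300 bases, from 250 before to 50 after the start, were taken from RefSeq (GRCh38.p14) for the 8 of the 10 genes with an entry; FKBP10 and LOXL2 had none. They were searched on both strands for ACGTG, 1 form of the core letters of the hypoxia response element bound by HIF, and no other motif was searched. The other form, GCGTG, was not counted, so a window without a match is not shown to lack the core. P4HA1 held 1 match, PLOD2 held 2, and the windows of P4HA2, P4HB, PLOD1, PLOD3, P3H1 and CRTAP held none. Each gene had 1 window. Those of P4HA2, PLOD1, PLOD2 and PLOD3 lie inside the annotated gene, that of P4HA2 farthest, so the outermost starts of these genes were not searched. Of 35116 RefSeq promoters of the same length, 7518 (21.4%) held the letters. Their medians were 14 CG dinucleotides and 58.7% GC, against 31 and 70.3% for P4HA1, 37 and 72.0% for PLOD2 and 11 and 55.7% for P4HA2. ACGTG itself holds a CG, so this share is not matched to windows rich in CG. P4HA1 and PLOD2 are shown because they hold the matches and P4HA2 because it is the paralog of P4HA1, and capitals mark ACGTG or its reverse complement. The windows are chr10:73096817-73097116, chr5:132227042-132227341 and chr3:146161135-146161434, all on the minus strand, and each is written 5′ to 3′ along its gene. 
P4HA1: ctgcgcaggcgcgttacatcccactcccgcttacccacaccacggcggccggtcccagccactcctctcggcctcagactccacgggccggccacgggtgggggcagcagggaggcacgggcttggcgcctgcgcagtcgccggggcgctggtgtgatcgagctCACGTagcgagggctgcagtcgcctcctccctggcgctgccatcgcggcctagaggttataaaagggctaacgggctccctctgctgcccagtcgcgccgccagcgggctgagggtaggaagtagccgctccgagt
P4HA2: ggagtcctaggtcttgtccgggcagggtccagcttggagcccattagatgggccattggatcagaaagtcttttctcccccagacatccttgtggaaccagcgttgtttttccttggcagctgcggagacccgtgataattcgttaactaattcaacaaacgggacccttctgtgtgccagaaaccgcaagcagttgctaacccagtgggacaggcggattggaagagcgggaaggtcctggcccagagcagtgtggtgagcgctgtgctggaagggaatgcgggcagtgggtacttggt
PLOD2: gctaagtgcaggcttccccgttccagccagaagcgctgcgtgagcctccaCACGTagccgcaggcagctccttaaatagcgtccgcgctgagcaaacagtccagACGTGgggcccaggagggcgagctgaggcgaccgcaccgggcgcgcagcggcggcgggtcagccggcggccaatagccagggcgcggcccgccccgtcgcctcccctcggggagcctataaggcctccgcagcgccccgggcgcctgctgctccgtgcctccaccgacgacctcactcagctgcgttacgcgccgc

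P4HA1 (ENSG00000122884, chromosome 10, 73007217 to 73096974, minus strand) encodes the first of these catalytic subunits. It stood at 27.0 and 30.9 FPKM in M14A printed, at 9.27, 17.7 and 18.8 FPKM in M14A plate and at 7.50, 7.97 and 8.09 FPKM in HepaRG plate. The 3 groups did not overlap, and M14A plate library 1 was close to HepaRG. The log2 fold change was 0.82 for M14A plate minus HepaRG plate (SE 0.23, 95% interval 0.28 to 1.35) and 0.94 for M14A printed minus M14A plate (SE 0.26, 95% interval 0.34 to 1.54), and both were called higher. The call in the line comparison was lost in 9 of 21 alternatives and that after printing in 8. Without M14A plate library 1 the values were 1.12 and 0.64, both called, and at equal FPKM totals that after printing was 0.21.

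P4HA2 (ENSG00000072682, chromosome 5, 132191838 to 132295315, minus strand) differed between the lines and not detectably after printing. It stood at 11.8 and 12.2 FPKM in M14A printed, at 17.4, 12.2 and 12.3 FPKM in M14A plate and at 5.73, 6.10 and 5.76 FPKM in HepaRG plate. All M14A libraries were above all HepaRG libraries, while those of M14A printed lay at the low end of M14A plate. Between the lines it had a log2 fold change of 1.11 for M14A plate minus HepaRG plate (SE 0.15, 95% interval 0.77 to 1.45), called higher, with 0.94 to 1.23 in the 21 alternatives. For M14A printed minus M14A plate it was -0.19 (SE 0.17, 95% interval -0.57 to 0.19), not called here but called lower at equal FPKM totals with -0.88. Of its exon bases, 6.45% also lie in the antisense gene P4HA2-AS1, so a small part of its reads is uncertain.

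P4HB (ENSG00000185624, chromosome 17, 81843159 to 81860694, minus strand) encodes protein disulfide isomerase, which is also the beta subunit that holds the alpha subunits in solution. It was the most abundant of the 10 genes in every group, at 302 and 290 FPKM in M14A printed, 231, 190 and 167 FPKM in M14A plate and 113, 118 and 121 FPKM in HepaRG plate. None of the groups overlapped. P4HB had a log2 fold change of 0.72 for M14A plate minus HepaRG plate (SE 0.14, 95% interval 0.40 to 1.04), called higher, with 0.47 to 0.83 in the 21 alternatives. For M14A printed minus M14A plate it was 0.60 (SE 0.16, 95% interval 0.24 to 0.96) and called higher. That call was lost in 8 of 21 alternatives, among them leaving out either printed library. In 2 more the sign changed, with -0.16 at equal FPKM totals and -0.30, called lower, under quantile normalization. Of its exon bases, 9.98% also lie in AC145207.3.

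The balance of the alpha subunits differed most in M14A printed and in M14A plate library 1. P4HA1 made up 69.6 and 71.7% of the summed alpha subunit FPKM in M14A printed, 34.7, 59.2 and 60.4% in M14A plate and 56.7, 56.6 and 58.4% in HepaRG plate. Both printed libraries were above all others, M14A plate library 1 was far below all others, and M14A plate libraries 2 and 3 were just above HepaRG. The alpha subunits together reached 38.8 and 43.1 FPKM in M14A printed, 26.7 to 31.1 FPKM in M14A plate and 13.2 to 14.1 FPKM in HepaRG plate, with no overlap on the deposited scale. P4HB FPKM per alpha subunit FPKM was 7.80 and 6.71 in M14A printed, 5.36 to 8.66 in M14A plate and 8.41 to 8.76 in HepaRG plate. These ratios in M14A plate overlapped those in both other groups.

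**Figure D3:**
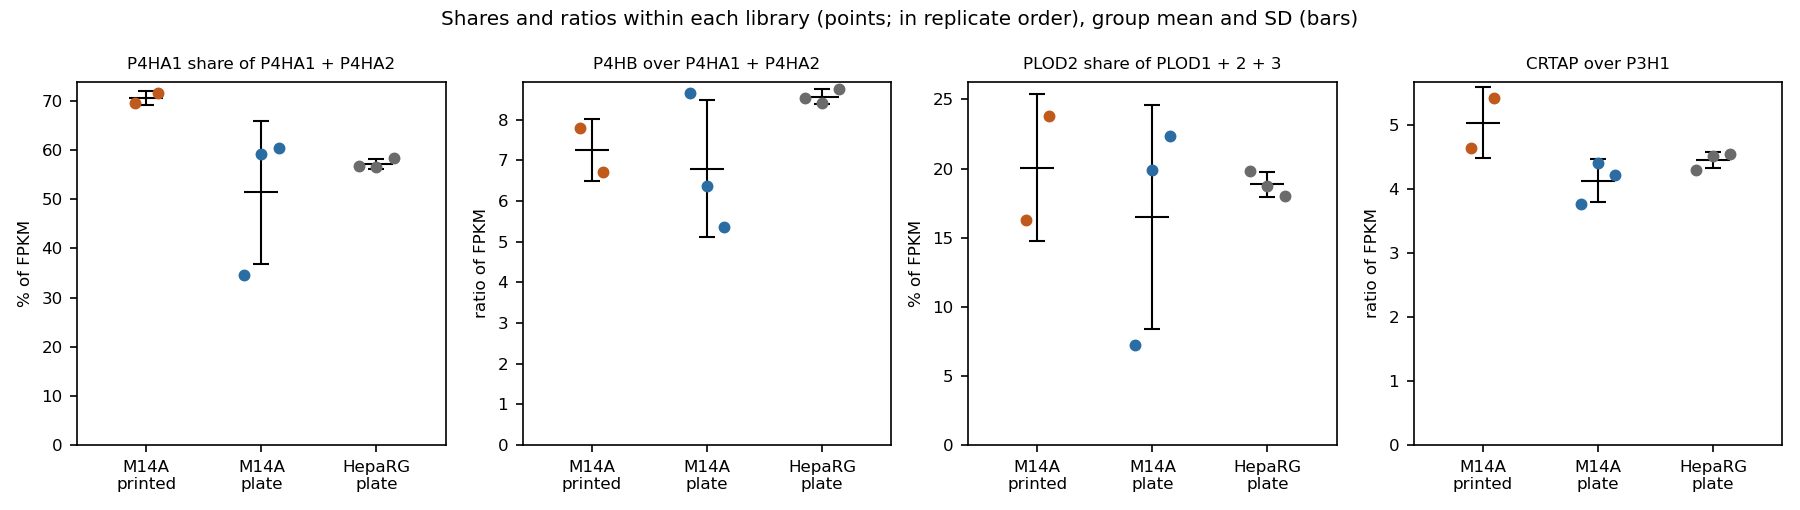
Ratios of FPKM within the enzyme families in every library, with the groups M14A printed, M14A plate and HepaRG plate from left to right; points are libraries and bars show the group mean and SD. The share of P4HA1 among the alpha subunits is 69.6 and 71.7% in M14A printed and at most 60.4% elsewhere, while M14A plate library 1 is the lowest point for both P4HA1 and PLOD2.

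P3H1 and CRTAP form, with the prolyl isomerase PPIB, the complex that hydroxylates collagen prolines at the 3 position. P3H1 (ENSG00000117385, chromosome 1, 42746335 to 42767084, minus strand), the catalytic subunit, stood at 27.6 and 22.8 FPKM in M14A printed, at 25.2, 17.1 and 16.9 FPKM in M14A plate and at 15.5, 15.5 and 15.7 FPKM in HepaRG plate. All M14A libraries were above all HepaRG libraries, while M14A printed overlapped M14A plate. Its log2 fold changes, 0.30 (SE 0.17, 95% interval -0.09 to 0.69) for M14A plate minus HepaRG plate and 0.36 (SE 0.19, 95% interval -0.08 to 0.79) for M14A printed minus M14A plate, were not called. The second was -0.37 at equal FPKM totals, and 0.54 and called without M14A plate library 1.

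CRTAP (ENSG00000170275, chromosome 3, 33113979 to 33147773, plus strand), the helper subunit, was the second most abundant of the 10 genes in every group. It stood at 128 and 124 FPKM in M14A printed, at 94.7, 75.3 and 71.4 FPKM in M14A plate and at 66.6, 69.7 and 71.4 FPKM in HepaRG plate. The printed libraries were above all others, and the lowest M14A plate library was at the same rounded level as the highest HepaRG library. CRTAP had a log2 fold change of 0.20 for M14A plate minus HepaRG plate (SE 0.14, 95% interval -0.11 to 0.52), not called. For M14A printed minus M14A plate it was 0.65 (SE 0.15, 95% interval 0.30 to 1.00), called higher, but -0.11 at equal FPKM totals. CRTAP per P3H1 FPKM was 4.64 and 5.42 in M14A printed, 3.76 to 4.41 in M14A plate and 4.30 to 4.54 in HepaRG plate, so the printed libraries had the highest ratios.

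PPIB, the third subunit, was not one of the 10 genes. It averaged 182 ± 5.94 FPKM in M14A printed, 105 ± 16.7 FPKM in M14A plate and 76.1 ± 3.99 FPKM in HepaRG plate (SD, n = 2, 3 and 3). Its log2 fold change was 0.45 for M14A plate minus HepaRG plate (SE 0.14, adjusted p = 0.044) and 0.80 for M14A printed minus M14A plate (SE 0.16, adjusted p = 0.0070). The call in the line comparison was lost in 12 of 21 alternatives. Of the PPIB exon bases, 27.2% also lie in SNX22, which makes its reads uncertain.

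The lysyl hydroxylases are encoded by PLOD1, PLOD2 and PLOD3. PLOD1 (ENSG00000083444, chromosome 1, 11934205 to 11975538, plus strand), which modifies lysines in the helix, stood at 85.3 and 73.2 FPKM in M14A printed, at 64.4, 48.5 and 44.2 FPKM in M14A plate and at 36.6, 38.9 and 39.6 FPKM in HepaRG plate. The 3 groups did not overlap. PLOD1 had a log2 fold change of 0.42 for M14A plate minus HepaRG plate (SE 0.16, 95% interval 0.06 to 0.79), not called, and 0.60 for M14A printed minus M14A plate (SE 0.18, 95% interval 0.19 to 1.01), called higher. The call after printing was lost in 13 of 21 alternatives. In 1 more, at equal FPKM totals, the sign changed, with a value of -0.15 that was not called.

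PLOD2 (ENSG00000152952, chromosome 3, 146069440 to 146163653, minus strand), which modifies lysines at the chain ends, the step that needs FKBP10, did not follow FKBP10. It stood at 31.3 and 41.1 FPKM in M14A printed, at 10.8, 25.3 and 27.2 FPKM in M14A plate and at 17.7, 16.8 and 16.8 FPKM in HepaRG plate. M14A plate library 1 was below HepaRG and libraries 2 and 3 were above it, so these groups overlapped, while both printed libraries were above all others. The log2 fold change was 0.19 for M14A plate minus HepaRG plate (SE 0.30, 95% interval -0.50 to 0.88) and 0.84 for M14A printed minus M14A plate (SE 0.34, 95% interval 0.06 to 1.62), neither called. Without M14A plate library 1 the values were 0.59 and 0.44, both called higher. Leaving out M14A plate library 3 instead gave -0.04 in the line comparison, and at equal FPKM totals the value after printing was 0.10.

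PLOD3 (ENSG00000106397, chromosome 7, 101205977 to 101218420, minus strand), whose product also adds the sugars to hydroxylysine, stood at 75.5 and 58.2 FPKM in M14A printed, at 73.5, 53.3 and 50.2 FPKM in M14A plate and at 35.0, 33.7 and 36.6 FPKM in HepaRG plate. All M14A libraries were above all HepaRG libraries, while M14A printed and M14A plate overlapped. The log2 fold change was 0.71 for M14A plate minus HepaRG plate (SE 0.17, 95% interval 0.32 to 1.11), called higher, and lost in 3 of 21 alternatives. For M14A printed minus M14A plate it was 0.19 (SE 0.19, 95% interval -0.26 to 0.63), not called. Without M14A plate library 1 it was 0.35 and called higher, and at equal FPKM totals it was -0.56 and called lower. Of its exon bases, 7.57% also lie in ZNHIT1.

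Together the lysyl hydroxylase genes reached 192 and 173 FPKM in M14A printed, 149, 127 and 122 FPKM in M14A plate and 89.3, 89.4 and 93.0 FPKM in HepaRG plate, with no overlap between groups on the deposited scale. PLOD2 made up 16.3 and 23.8% of this sum in M14A printed, 7.27, 19.9 and 22.4% in M14A plate and 19.8, 18.8 and 18.0% in HepaRG plate. These shares overlapped between all groups.

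LOXL2, a secreted copper-dependent oxidase that starts cross-linking of collagen outside the cell, was nearly absent from all libraries. This gene (ENSG00000134013, chromosome 8, 23297189 to 23425328, minus strand) stood at 0.183 and 0.108 FPKM in M14A printed, at 0.0548, 0.108 and 0.0712 FPKM in M14A plate and at 0.279, 0.221 and 0.218 FPKM in HepaRG plate. These levels rest on 14 and 10 reads in M14A printed, 5, 12 and 8 reads in M14A plate and 30, 29 and 26 reads in HepaRG plate. Every M14A library was below every HepaRG library, and at this depth M14A printed and M14A plate were not set apart. With no filter on low genes, LOXL2 was called lower in M14A plate.

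Between M14A plate and HepaRG plate, a comparison that sets the edited line beside its parent in flask culture, 4 of the 9 tested genes were called higher (P4HA1, P4HA2, P4HB, PLOD3), 1 was called lower (FKBP10) and 4 were not called. Among all tested genes 16.1% were called higher and 14.7% lower, 30.9% in either direction, and nothing is read from the counts, since these values chose the genes. The median log2 fold change was 0.42 over the 9 and -0.04 over all tested genes. The number called higher was 2 without HepaRG plate library 1 or library 2, and 5 without M14A plate library 1. Without regard to the fit, 7 of the 9 had non-overlapping groups with M14A plate higher (25.7% of all tested genes) and 1 with M14A plate lower (27.4%).

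In the comparison of M14A printed with M14A plate, which asks how the line differs after printing, 4 of the 9 were called higher (P4HA1, P4HB, PLOD1, CRTAP), 0 lower and 5 were not called. Among all tested genes 17.7% were called higher and 15.5% lower, 33.2% in either direction, and here too nothing is read from the counts. The median log2 fold change was 0.60 over the 9 and 0.01 over all tested genes, and 6 of the 9 had non-overlapping groups with M14A printed higher (26.9% of all tested genes). These calls depend on the scale. Giving all libraries the same FPKM total moved the median of all genes to -0.51 and that of the 9 to -0.15, with 0 of them called higher and 3 called lower. When only the 2 groups compared entered the fit, 0 of the 9 were called. Leaving out M14A printed library 1 left 1 called higher, which was FKBP10, leaving out M14A printed library 2 left 0, and leaving out M14A plate library 1 gave 8. Both comparisons use the M14A plate libraries, so they are not independent of each other. M14A printed was not tested against HepaRG plate, but both printed libraries were above all HepaRG libraries for 8 of the 9 tested genes, as for 38.5% of all tested genes, and below them for FKBP10, as for 41.8%. This and the other statements on overlap of groups hold on the deposited scale. FPKM totals there were 499995 and 514152 in M14A printed and 254141 to 266419 in HepaRG plate. The contrast was not repeated at equal totals.

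**Figure D4:**
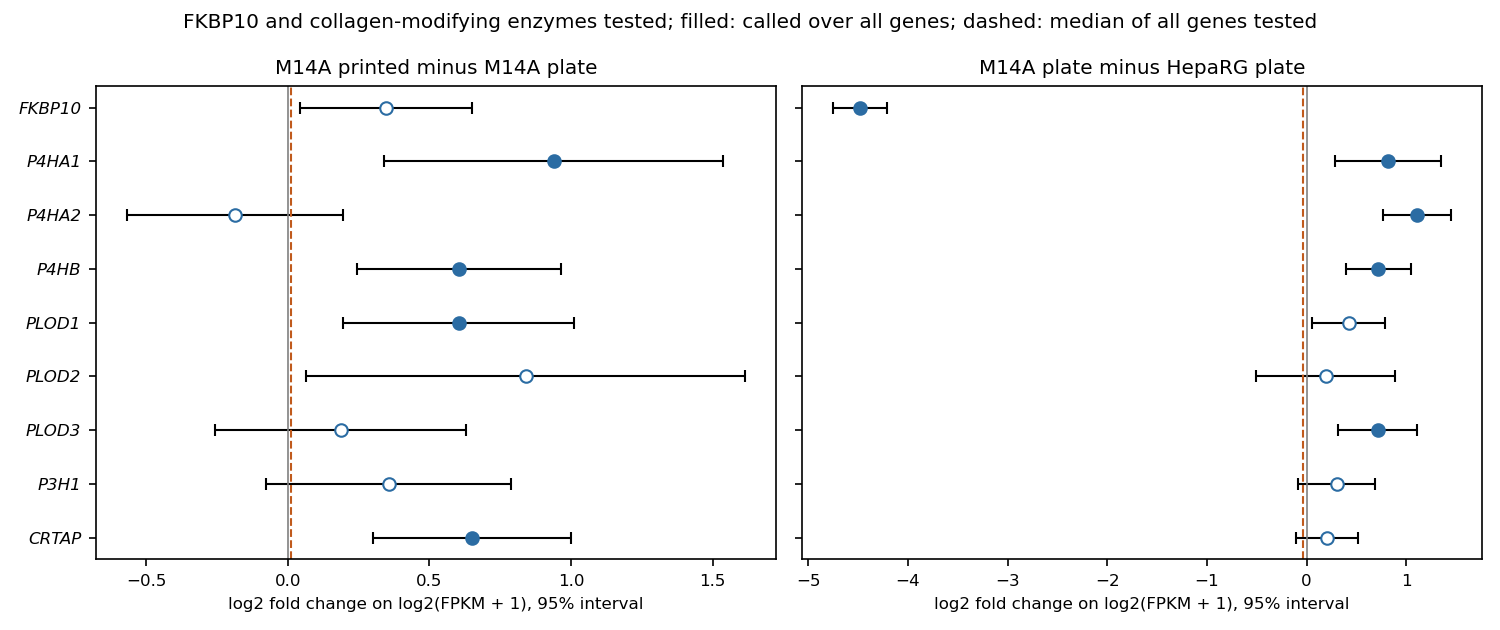
Log2 fold change on the log2(FPKM + 1) scale with its 95% interval for the 9 tested genes, for M14A printed minus M14A plate (left) and M14A plate minus HepaRG plate (right), each with its own axis; filled points were called at an adjusted p below 0.05 and the dashed line is the median of all tested genes. FKBP10 stands alone at -4.49 in the line comparison, where the other 8 lie between 0.19 and 1.11, and no gene was called lower after printing.

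The substrates were examined through 15 collagen chain genes, of which 10 were tested. For this and all lists below, 16.1% of all tested genes were called higher and 14.7% lower in M14A plate. After printing these shares were 17.7% and 15.5%. The lists were chosen with earlier results known, so nothing is read from their counts. In M14A plate 1 chain gene was called higher and 3 lower, with a median log2 fold change of -0.32. The gene called higher was COL5A2, also of type V collagen, at 0.912 ± 0.319 FPKM in M14A plate and 0.163 ± 0.0511 FPKM in HepaRG plate (adjusted p = 0.0071, log2 fold change 0.70 with SE 0.15). COL5A1 fell by 4.68 on the log2 scale (SE 0.10, adjusted p = 4.1e-08), to 0.0121 ± 0.0139 FPKM in M14A plate, against 25.0 ± 1.12 FPKM in HepaRG plate. COL6A1, a chain of a microfibril collagen, averaged 0.00390 ± 0.00676 FPKM in M14A plate and 1.21 ± 0.0663 FPKM in HepaRG plate, and COL1A1, a chain of type I collagen, averaged 0.785 ± 0.332 FPKM in M14A plate and 1.91 ± 0.0999 FPKM in HepaRG plate, both called lower. In M14A plate COL5A1 rests on 0, 2 and 6 reads and COL6A1 on 1, 0 and 0 reads, so adding 1 to each value understates their change. In M14A printed 0 chain genes were called higher and 2 lower, which were the basement membrane chains COL4A1 (adjusted p = 0.0066, log2 fold change -0.87 with SE 0.17) and COL4A2 (adjusted p = 0.016, log2 fold change -0.82 with SE 0.20). COL4A1 averaged 5.05 ± 0.0301 FPKM in M14A printed and 10.2 ± 2.38 FPKM in M14A plate. The fibril chain genes differed widely in level. COL1A2 and COL3A1 stayed below 0.4 FPKM in every library, while COL11A1 stood at 11.3 and 14.5 FPKM in M14A printed, at 11.5, 15.9 and 15.3 FPKM in M14A plate and at 9.77, 10.4 and 9.57 FPKM in HepaRG plate.

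Other genes of collagen hydroxylation and glycosylation (6, with 4 tested) gave 2 called higher and 1 lower in M14A plate. P3H2, a prolyl 3-hydroxylase of basement membrane collagens, averaged 50.6 ± 11.1 FPKM in M14A plate and 22.4 ± 0.695 FPKM in HepaRG plate (adjusted p = 9.2e-04, log2 fold change 1.12 with SE 0.16). COLGALT1, which adds galactose to hydroxylysine, averaged 118 ± 17.7 FPKM in M14A plate and 86.9 ± 2.93 FPKM in HepaRG plate, and its call (adjusted p = 0.048, log2 fold change 0.43 with SE 0.14) was lost in 10 of 21 alternatives. P3H4 was the gene called lower. In M14A printed 0 of the 4 were called. COLGALT1 averaged 148 ± 15.3 FPKM there, with a log2 fold change of 0.32 over M14A plate (adjusted p = 0.15), of -0.43 at equal FPKM totals and of 0.44, called higher, without M14A plate library 1.

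Relatives of FKBP10 among the endoplasmic reticulum prolyl isomerases were 5 genes, all tested. In M14A plate 0 were called higher and 3 lower, with a median log2 fold change of -0.46. FKBP14, a collagen-binding isomerase, averaged 1.84 ± 1.06 FPKM in M14A plate and 4.53 ± 0.0174 FPKM in HepaRG plate (adjusted p = 0.024, log2 fold change -1.04 with SE 0.28, or -0.68 without M14A plate library 1). FKBP7 averaged 1.09 ± 0.406 FPKM in M14A plate and 2.69 ± 0.0818 FPKM in HepaRG plate (adjusted p = 0.0034, log2 fold change -0.84 with SE 0.15), and FKBP11 averaged 1.95 ± 0.210 FPKM in M14A plate and 3.06 ± 0.137 FPKM in HepaRG plate (adjusted p = 0.013, log2 fold change -0.46 with SE 0.11). In M14A printed 2 were called higher and 0 lower, which were FKBP7 at 2.96 ± 0.0967 FPKM (adjusted p = 0.0042, log2 fold change 0.94 with SE 0.17) and FKBP2 at 72.5 ± 2.41 FPKM (adjusted p = 0.018, log2 fold change 0.85 with SE 0.22). FKBP10 had the largest difference between the lines in its family, at -4.49 against -1.04 for FKBP14.

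Of 9 genes of collagen folding and export, all tested, 1 was called higher (PPIB) and 1 lower in M14A plate. The one called lower was CREB3L1, a transcription factor of secretory and collagen genes, at 0.0615 ± 0.0427 FPKM in M14A plate and 3.15 ± 0.225 FPKM in HepaRG plate (adjusted p = 4.2e-06, log2 fold change -1.97 with SE 0.11). SERPINH1, the collagen chaperone that binds the folded helix, was not called, with 48.2, 32.6 and 28.8 FPKM in M14A plate and 48.0, 46.6 and 49.3 FPKM in HepaRG plate. In M14A printed 2 were called higher, PPIB and the channel gene TMEM38B (adjusted p = 0.019, log2 fold change 0.79 with SE 0.20), and 1 lower, the export adaptor gene KLHL12 (adjusted p = 0.024, log2 fold change -0.47 with SE 0.13).

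Genes of cross-linking and propeptide removal (12, with 5 tested) gave 1 called higher and 4 lower in M14A plate, with a median log2 fold change of -1.39. PCOLCE, an enhancer of propeptide cleavage, averaged 3.49 ± 1.26 FPKM in M14A plate and 14.2 ± 0.391 FPKM in HepaRG plate (adjusted p = 3.4e-04, log2 fold change -1.80 with SE 0.22). LOXL1, a relative of LOXL2, averaged 0.817 ± 0.269 FPKM in M14A plate and 4.38 ± 0.505 FPKM in HepaRG plate (adjusted p = 1.0e-04, log2 fold change -1.57 with SE 0.15). ADAMTS2, a propeptidase, averaged 0.00869 ± 0.00764 FPKM in M14A plate and 1.65 ± 0.228 FPKM in HepaRG plate (adjusted p = 4.4e-05, log2 fold change -1.39 with SE 0.12). Its M14A plate level rests on 2, 2 and 0 reads, and its log2 fold change was -7.52 to -1.32 in 20 alternatives, so its rank by size depends on the pseudocount. Of the exon bases of PCOLCE and LOXL1, 16.6% and 9.21% also lie in other genes. In M14A printed 1 was called higher, PCOLCE2, at 6.72 ± 0.625 FPKM in M14A printed and 3.93 ± 0.433 FPKM in M14A plate (adjusted p = 0.0069, log2 fold change 0.65 with SE 0.13).

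P4HB also belongs with the disulfide-forming enzymes of the endoplasmic reticulum, of which 8 others were tested. In M14A plate 4 were called higher and 0 lower. PDIA4 averaged 104 ± 13.7 FPKM in M14A plate and 47.5 ± 0.935 FPKM in HepaRG plate (adjusted p = 3.0e-04, log2 fold change 1.11 with SE 0.13), and PDIA3 averaged 84.9 ± 4.78 FPKM in M14A plate and 63.2 ± 1.25 FPKM in HepaRG plate (adjusted p = 0.022, log2 fold change 0.42 with SE 0.11). ERP44, which retains proteins in the early secretory pathway, was also called (adjusted p = 0.048, log2 fold change 0.41 with SE 0.13), but not in 15 of 21 alternatives. In M14A printed 3 were called higher and 0 lower, namely PDIA6 (adjusted p = 0.0073, log2 fold change 0.60 with SE 0.12), PDIA3 (0.53, SE 0.12, adjusted p = 0.013) and ERP44 (0.48, SE 0.15, adjusted p = 0.040), with values of -0.15, -0.23 and -0.22 at equal FPKM totals. Other genes cover 25.2% of the exon bases of PDIA6 and 18.9% of those of PDIA3.

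The hydroxylases use oxygen, iron and 2-oxoglutarate, and P4HA1, P4HA2 and PLOD2 are known targets of HIF, the hypoxia-inducible factor. Of 10 other HIF targets, all tested, 7 were called higher and 1 lower in M14A plate, with a median log2 fold change of 0.90. CA9, a carbonic anhydrase, averaged 51.3 ± 18.6 FPKM in M14A plate and 4.10 ± 0.388 FPKM in HepaRG plate (adjusted p = 2.1e-05, log2 fold change 3.31 with SE 0.24). NDRG1 stood at 46.6, 16.8 and 15.3 FPKM in M14A plate and averaged 4.69 ± 0.184 FPKM in HepaRG plate (adjusted p = 0.0025, log2 fold change 2.08 with SE 0.35). Without M14A plate library 1 the log2 fold change of NDRG1 was 1.58. The peptide hormone gene ADM averaged 30.1 ± 15.4 FPKM in M14A plate and 9.27 ± 0.920 FPKM in HepaRG plate (adjusted p = 0.0046, log2 fold change 1.49 with SE 0.29). VEGFA, which encodes an endothelial growth factor, was the one called lower, and SLC2A1 and KDM3A were not called. M14A plate library 1 was the highest of its group for CA9, NDRG1, ADM and P4HA2, but the lowest for P4HA1 and PLOD2. In M14A printed 3 were called higher and 0 lower, with a median of 0.74. These were CA9, at 190 ± 48.8 FPKM in M14A printed (adjusted p = 0.0017, log2 fold change 1.90 with SE 0.27), the mitophagy receptor gene BNIP3, at 76.2 ± 0.516 FPKM in M14A printed and 32.1 ± 6.22 FPKM in M14A plate (adjusted p = 0.0014, log2 fold change 1.24 with SE 0.17), and ANKRD37 (adjusted p = 0.024, log2 fold change 0.83 with SE 0.23). Of the exon bases of CA9 and ANKRD37, 38.5% and 35.2% also lie in other genes. The part of HIF in the differences of the enzymes was not tested.

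Of 6 other oxygenases of this class, 5 were tested, and 1 was called higher and 1 lower in M14A plate. ASPH, which hydroxylates aspartate in growth factor-like domains, averaged 8.47 ± 3.12 FPKM in M14A plate and 30.3 ± 0.997 FPKM in HepaRG plate (adjusted p = 8.5e-04, log2 fold change -1.78 with SE 0.25). EGLN3, a prolyl hydroxylase that acts on HIF, stood at 21.6, 9.48 and 9.02 FPKM in M14A plate and averaged 5.62 ± 0.325 FPKM in HepaRG plate (adjusted p = 0.026, log2 fold change 1.01 with SE 0.28, or 0.63 without M14A plate library 1). In M14A printed only HIF1AN, an asparaginyl hydroxylase that acts on HIF, was called, lower, at 3.28 ± 0.210 FPKM in M14A printed and 7.17 ± 1.20 FPKM in M14A plate (adjusted p = 0.0026, log2 fold change -0.92 with SE 0.15).

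Several of these calls on other pathway genes rest on the settings. Between the lines, calls were lost in 7 of 21 alternatives for PDIA3 and 5 of 21 for EGLN3, and in 6 of 20 for FKBP14 and 4 of 20 for FKBP11, which the filter at 5 FPKM removed. After printing they were lost in 11 of 21 for ERP44, 9 for KLHL12 and ANKRD37, 8 for FKBP2, 7 for TMEM38B, 5 for PPIB and PDIA3, 4 for PCOLCE2 and PDIA6, 3 for COL4A2 and 1 for COL4A1, and in 2 of 20 for FKBP7, without counting those that changed sign.

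**Figure D5:**
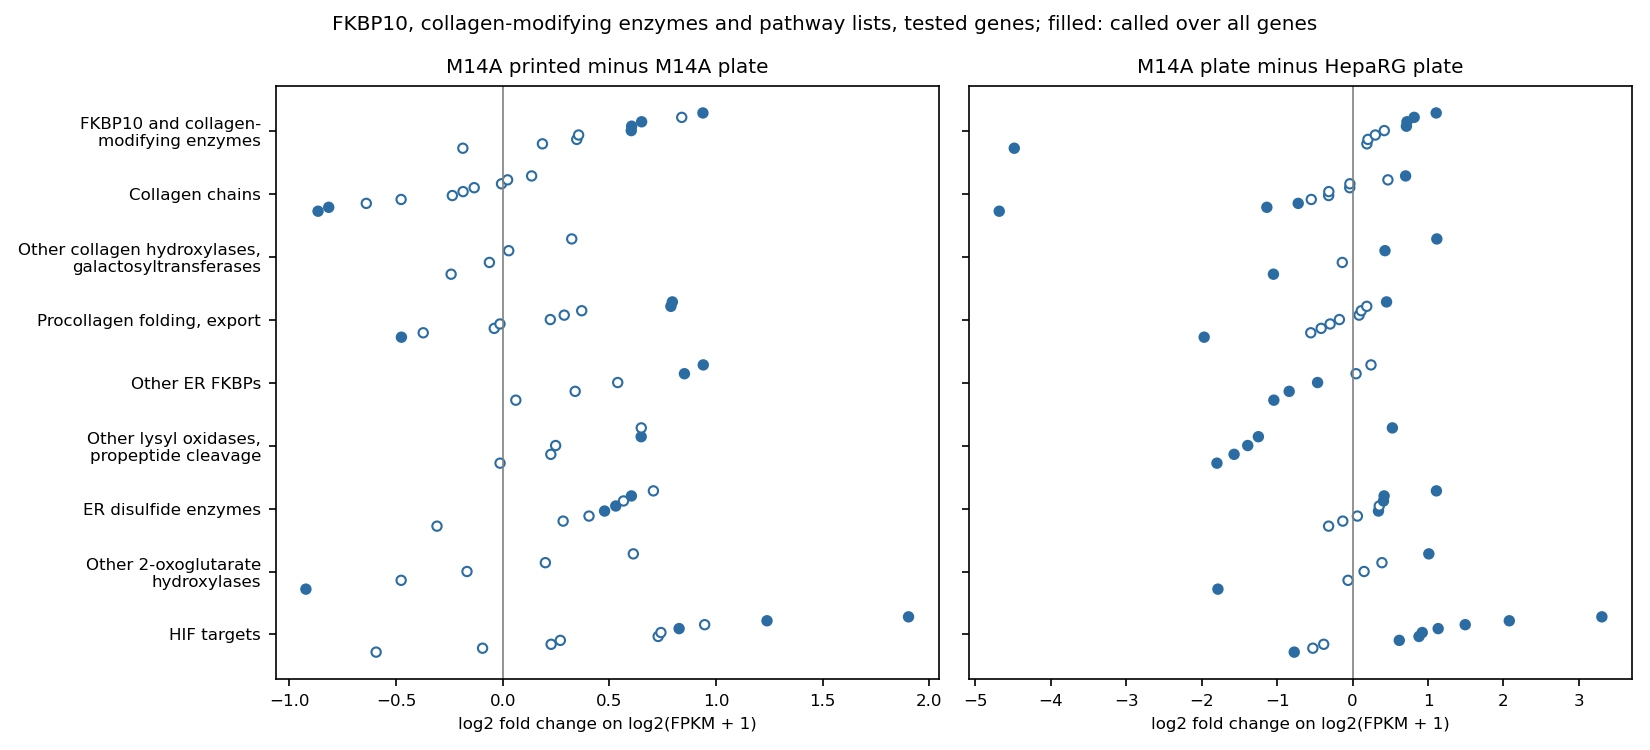
Log2 fold change of each tested gene among the 10 described genes and in each pathway list, for M14A printed minus M14A plate (left) and M14A plate minus HepaRG plate (right), each with its own axis; each point is 1 gene, filled where called at an adjusted p below 0.05. FKBP10 and COL5A1 are the lowest points of the line comparison, at -4.49 and -4.68, and CA9 is the highest at 3.31.

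Markers of cell types differed between the groups as well. Summed over 6 stellate cell and fibroblast markers, the level was 83.9 and 92.4 FPKM in M14A printed, 39.5 to 68.3 FPKM in M14A plate and 17.5 to 19.4 FPKM in HepaRG plate. DCN, LUM and ACTA2 made up most of this sum. Of the 4 tested, DCN and ACTA2 were called higher in M14A plate and LUM was not called. PDGFRB was called lower, at 0.0698 FPKM on average in M14A plate and 1.80 FPKM in HepaRG plate. THY1 and PDGFRA were at or near 0 in all libraries. Other genes cover 30.1% of the exon bases of ACTA2. Summed over 5 hepatocyte markers, the level was 529 and 568 FPKM in M14A printed, 292 to 493 FPKM in M14A plate and 11.4 to 13.0 FPKM in HepaRG plate. All 3 tested (SERPINA1, ALB and APOA1) were called higher in M14A plate. SERPINA1 made up most of this sum in every group, while the untested TTR and TF averaged at most 0.220 and 0.120 FPKM in any group. The albumin gene ALB averaged 81.2 ± 2.97 FPKM in M14A printed, 26.3 ± 3.01 FPKM in M14A plate and 2.19 ± 0.211 FPKM in HepaRG plate. Summed over 6 biliary and progenitor markers, the level was 46.9 and 50.3 FPKM in M14A printed, 26.4 to 62.0 FPKM in M14A plate and 116 to 121 FPKM in HepaRG plate, with 1 of 5 tested called higher and 3 lower in M14A plate. KRT7 was the one called higher (log2 fold change 1.05), and CD24 (-3.73) and SPP1 (-2.34) had the largest falls. After printing only KRT7 of these markers was called, higher (1.14). Endothelial markers summed to at most 2.18 FPKM in any library, with CDH5 at 0 in all. KDR, the only one tested, was called higher in M14A plate, at 1.42 FPKM on average against 0.545 FPKM in HepaRG plate. Leukocyte markers summed to 9.93 and 11.7 FPKM in M14A printed, 6.52 to 10.6 FPKM in M14A plate and 2.34 to 2.84 FPKM in HepaRG plate, with PTPRC at or near 0 in all. The 2 tested, LAPTM5 and CD14, were called higher in M14A plate, with log2 fold changes of 1.60 and 0.72. The part of these markers, and of the mitochondrial share, in the differences of FKBP10 and the enzymes was not tested.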

How the data were processed

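The values are FPKM as deposited by the authors for 8 libraries, with the gene length in bases that the authors' table gives. Per the labels' protocols, RNA was taken in TRIzol, 1 µg entered each library, and an NEBNext Ultra kit was used. The submitters' processing notes name HISAT2 2.0.5 and featureCounts 1.5.0-p3. Strand setting and genome build are not given in the sources here, but all 58735 gene positions match GENCODE 29 (GRCh38). FPKM times length is a whole multiple of 1 read within 0.01 for 99.92 to 99.98% of non-zero values in each library, which gave the reads. FPKM totals were 499995 and 514152 in M14A printed, 272290 to 350931 in M14A plate and 254141 to 266419 in HepaRG plate, so a difference is relative to the bulk of genes. Replicate pairs differed by chi-square per degree of freedom of 2.69 to 69.3, so none was counted as a duplicate.

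The test was limma 3.58.1 (R 4.3.3) on log2(FPKM + 1), for genes reaching 1 FPKM in at least 2 libraries (eBayes with trend; 3 group means, 8 libraries, 5 residual degrees of freedom), two-sided, with Benjamini-Hochberg adjustment over all 14349. The groups come from the sample titles. On simulated reads with 200 changed genes, the fit called 96% of 2-fold and 100% of 4-fold changes for M14A plate minus HepaRG plate (13595 genes) and 96% and 99% for M14A printed minus M14A plate (13304 genes). The simulation used 1 fixed spread for all groups and changed only genes of at least 2 FPKM. The real replicate pairs differed unequally, by chi-square per degree of freedom of 2.69 to 69.3. These shares therefore check the fit and are not its rates in the real libraries. The 10 genes, the 13 lists (97 entries) and the alternatives were chosen with earlier results of these data known. Named beside the 10 genes are FOXM1 and HNF4A, and the 5 genes most like FKBP10. From each list and comparison, up to 3 called genes with the largest change on the log2(FPKM + 1) scale are named. Where none was called, the tested gene with the highest mean FPKM is named. NT5C3B, JUP, PTPRC, CDH5, THY1, PDGFRA, LUM, TTR, TF, COL1A2, COL3A1, COL5A2, COL11A1, SERPINH1, VEGFA, SLC2A1 and KDM3A were named after their values were seen. Alternatives were pseudocounts of 0.1 and 0.01, no filter or one at 5 FPKM, 4 other scalings, fits of only 2 groups, without trend, on recovered reads or with a replicate block, leaving out each library, and calling at 0.01.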

Additional observations from a re-analysis of the deposited data

How the results depend on the processing

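For M14A plate minus HepaRG plate, 2317 genes were called higher and 2112 lower. These became 1393 and 948 with a filter at 5 FPKM (59.5% of calls higher, against 52.3% in the main fit) and 1460 and 1084 at a threshold of 0.01, and 3362 were lower at equal FPKM totals (38.0% higher). Leaving out 1 library gave 1567 to 2912 higher and 1252 to 3220 lower, with 2912 and 3220 without M14A plate library 1 and 1252 lower without HepaRG plate library 1. Of the collagen-modifying genes, 2 were called higher at 0.01 and 2 to 5 with 1 library left out, and 2 were lower with no filter. With 1 library left out, PLOD2 ranged from -0.037 (without M14A plate replicate 3) to 0.59 (without replicate 1), and CRTAP -0.013 under quantile normalization.

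For M14A printed minus M14A plate, 2544 genes were called higher and 2226 lower. These became 495 and 6620 at equal FPKM totals (6.96% of calls higher, against 53.3%), 826 and 5363 at equal totals without mitochondrial genes (13.3%), 1062 and 954 with only 2 groups in the fit, and 1265 and 1103 at 0.01; 1260 were lower at 5 FPKM (62.5% higher). Leaving out 1 library gave 1202 to 4045 higher and 1228 to 3866 lower. The number of the 9 tested collagen genes called higher, 4, became 1 with no filter, 1 under quantile normalization, and 0 at equal totals, without mitochondrial genes, with only 2 groups and at 0.01; it was 0 to 8 with 1 library left out, 8 without M14A plate library 1, 2 without library 2, and 1 and 0 without M14A printed library 1 and 2. Called lower were 3 at equal totals, 2 without mitochondrial genes and 2 under quantile normalization, against 0. Values that turned at equal totals were -0.16 for P4HB, -0.15 for PLOD1, -0.56 for PLOD3, -0.37 for P3H1, -0.11 for CRTAP, -0.43 for COLGALT1, -0.15 for PDIA6, -0.23 for PDIA3, -0.22 for ERP44 and -0.26 for LAPTM5. Without mitochondrial genes they were -0.39 for PLOD3, -0.20 for P3H1, -0.25 for COLGALT1, -0.047 for PDIA3, -0.056 for ERP44 and -0.11 for LAPTM5, and under quantile normalization -0.30 for P4HB, -0.27 for PLOD3, -0.35 for COLGALT1 and -0.087 for PDIA3. With 1 library left out, FOXM1 ranged from -0.19 (without M14A plate replicate 3) to 0.060 (without replicate 1), and at equal totals it was -0.76. The median of all genes was -0.51 at equal totals and -0.39 without mitochondrial genes, against 0.01; the cause of the other shifts was not tested.

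The replicate numbers were not taken as pairs. The correlations of same-numbered libraries were -0.16 to 0.08 between M14A plate and HepaRG plate; they were 0.49 and 0.36 between M14A printed and M14A plate, where 2 pairs neither establish a pairing nor show its absence. With the replicate block the calls were 2257 higher and 2162 lower between the lines and 2286 and 2094 after printing, where P4HB and PLOD1 were not called and PLOD2 was (log2 fold change 0.95). Depth limits FKBP10 in M14A and LOXL2 everywhere, and the spread of M14A printed rests on 2 libraries.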
